A study of Mus musculus with 44 samples.

Results

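Non-cycling cells of a mouse medulloblastoma, a tumor of the cerebellum, were described from 1 single-cell RNA library, labelled GTML_SOX9-GFP. A cell was taken as non-cycling when it held at least 5000 UMIs (unique molecular identifiers, each marking 1 captured RNA molecule) and 0 UMIs in each of Mki67, Top2a, Cdk1, Aurkb and Ccnb1. This held for 465 of the 4537 cells with at least 5000 UMIs (10.2%, exact 95% binomial interval 9.38 to 11.2), out of 4645 cells in the library. The other 4072 cells served for comparison. The 5 genes were counts measured in these same cells, so every difference between the 465 and the other cells is a description without a test, and nothing is read from the 5 genes themselves.

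In the GTML model the transgene is MYCN, switched by tetracycline and driven from Glt1 (Slc1a2), and GTS tumors come from a related model driven from Sox9. The single-cell libraries, GTML_SOX9-GFP and fGTS2, were labelled as GTML and GTS tumor with no treatment, and were made with 10x Chromium 3' chemistry, which reads the 3' end of polyadenylated RNA. Bulk RNA came from GTML3, labelled as a GTML tumor, and from preGTS1, each under DMSO or DOX with 3 samples per condition. The title of the series places the study in the dormancy of SOX9-positive cells and recurrence driven by MYC. The labels used here give no age, further allele, number of animals per library, DOX dose or time, and all 4 treated groups share the tumor origin.

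Cells that leave the cell cycle stop making the genes of DNA replication and mitosis, many of which are held down by the DREAM complex at a promoter element called the CHR, often beside a CCAAT box. Exit from the cycle is also accompanied by inhibitors of cyclin-dependent kinases, antiproliferative factors of the BTG family, and MXD proteins, which pair with MAX and compete there with MYC and MYCN. A cell with no UMI in a few mitotic genes may be resting, or may be in G1 between divisions, and RNA counts at 1 time do not separate these states.

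The non-cycling cells were shallower than the others, with a median of 13648 against 19806 UMIs. They made up 28.9% of the cells with under 10000 UMIs (112 of 388), 14.6% of those with 10000 to under 20000 (306 of 2096) and 2.29% of those with 20000 or more (47 of 2053). Every cell was therefore thinned to 5000 UMIs by random draw, levels were expressed as CPM (thinned UMIs scaled to a total of 1000000), and a ratio is the level in the non-cycling cells over that in the other cells. At that depth 679 of the other cells (16.7%) also had 0 UMIs in the 5 genes, and 422 others held exactly 1 such UMI before thinning. Near the limit of 5000 UMIs, 2 non-cycling cells lay within 500 UMIs above it, and 4 cells with 0 UMIs in the 5 genes within 500 UMIs below it. After thinning, a median of 1877 genes per cell was detected in the non-cycling cells and 1952 in the others. Lower depth, smaller cells and less RNA per cell cannot be told apart here.

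A gene is called leading when it had at least 100 thinned UMIs over both groups, a ratio of at least 1.5 or at most its inverse, and the same direction in each of the 3 depth ranges. Of 9809 genes with enough UMIs, 306 were leading higher (3.12%) and 862 leading lower (8.79%), with a median ratio of 0.978 over all genes. Counts of leading genes within a list of this library are to be read beside these shares. The lower list was the more stable. A second random draw gave 295 higher genes, of which 124 were shared, and 864 lower genes, of which 586 were shared. Past 1.5-fold in all 10 other settings tried were 28 higher genes (9.15%) and 401 lower genes (46.5%). A minimum of 20 UMIs per gene is among these settings and cannot remove a leading gene. Most of the others reuse the first random draw, so the settings are not independent checks. A list's summed ratio runs over all of its genes in the table, also those with too few UMIs to be counted singly. Exact intervals on ratios below are at 95% and cover counting error only, not the spread between tumors or between cells.

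Promoters are shown for 4 G2/M genes far below the other cells, picked because they hold a pair of cell-cycle motifs, and for 3 genes whose levels are described below. They are RefSeq sequences of build GRCm38.p6, 5' to 3' on the gene's strand, and end at the base before the start. Capitals mark TTTGAA (the CHR) and CCAAT (the CCAAT box), each searched on both strands, so that TTCAAA and ATTGG also count. The first 4 are the G2/M genes of lowest ratio that hold both motifs within these 120 bases. Of the last 3, Mxd3 (lower in the non-cycling cells) and Tcp11l2 (higher) hold neither motif in this stretch, and Mxd4 (higher) holds only the CCAAT box.
Ckap2l, chr2:129297213-129297332 (- strand): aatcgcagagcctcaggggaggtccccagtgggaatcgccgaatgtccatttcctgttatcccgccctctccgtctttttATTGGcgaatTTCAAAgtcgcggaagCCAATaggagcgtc
Kif11, chr19:37376262-37376381 (+ strand): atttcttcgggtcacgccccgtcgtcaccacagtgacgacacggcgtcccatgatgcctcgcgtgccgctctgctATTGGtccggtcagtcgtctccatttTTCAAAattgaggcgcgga
Ect2, chr3:27153879-27153998 (- strand): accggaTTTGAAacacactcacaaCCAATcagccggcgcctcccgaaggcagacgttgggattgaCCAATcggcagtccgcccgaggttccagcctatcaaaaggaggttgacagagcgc
Cdc20, chr4:118437344-118437463 (- strand): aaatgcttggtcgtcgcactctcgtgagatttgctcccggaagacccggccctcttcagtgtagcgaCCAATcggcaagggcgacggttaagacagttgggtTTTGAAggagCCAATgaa
Mxd3, chr13:55329732-55329851 (- strand): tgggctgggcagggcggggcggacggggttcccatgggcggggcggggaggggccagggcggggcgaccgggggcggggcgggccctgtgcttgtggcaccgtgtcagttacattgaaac
Mxd4, chr5:34187711-34187830 (- strand): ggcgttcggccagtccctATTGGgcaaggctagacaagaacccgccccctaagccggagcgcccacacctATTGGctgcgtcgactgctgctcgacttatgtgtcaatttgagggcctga
Tcp11l2, chr10:84576827-84576946 (+ strand): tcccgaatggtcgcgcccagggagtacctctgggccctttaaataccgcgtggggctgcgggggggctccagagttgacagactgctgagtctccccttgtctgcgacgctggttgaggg

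In windows of 300 bases, 250 before and 50 after the start, 42 of 49 G2/M genes other than the 5 rule genes had a promoter sequence. Of these 42, 32 held the CHR (76.2%), 33 held the CCAAT box (78.6%) and 28 held both (66.7%). Among all 27025 promoters the shares were 18.2%, 38.0% and 7.16%, and among the 7927 matched of the genes with enough UMIs they were 11.2%, 39.8% and 4.91%. The leading lower genes (707 of 862 matched) held the CHR in 24.0%, the CCAAT box in 52.5% and both in 16.4%. The E2F motif TTCCCGC, also searched on both strands, was in 19.8% of them, against 4.67% of all promoters, 9.37% of the genes with enough UMIs and 2.38% of the G2/M genes. The leading higher genes (245 of 306 matched) had the CHR in 7.76%, the CCAAT box in 39.6%, the E2F motif in 7.35% and the E-box CACGTG in 8.57%, against 8.35% for that E-box in the leading lower genes, 10.9% in the genes with enough UMIs and 7.24% of all promoters. The E-box is the element that MYC and MXD proteins bind with MAX. A match to such letters is a description of the window and not a measured site.

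Mitotic and replication genes outside the rule were low together. All 49 G2/M genes were leading lower, and their summed level was 0.168 times that of the other cells (0.161 to 0.175), with a median of 4 thinned UMIs per non-cycling cell against 25. Not every cell chosen by the rule was low in them: 11 of the 465 (2.37%) lay above 25, the highest with 68. Ckap2l, which encodes a spindle protein, had 3 UMIs in the non-cycling cells against 1116 (ratio 0.0235, 0.00485 to 0.0690). Aurka, the mitotic kinase at spindle poles, had 4 against 1083 (0.0323, 0.00880 to 0.0831). Kif11, the motor that separates the poles, had a ratio of 0.0534, Ect2, which drives cytokinesis, 0.0870, and Cdc20, the activator of the anaphase-promoting complex, 0.101.

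Several of the lowest genes had no UMI in the non-cycling cells after thinning, in the first random draw. Against a floor of 3 UMIs over the group, Brip1, a helicase of DNA repair, was at least 9.25-fold lower, and Gtse1, a G2 and S phase protein, at least 7.23-fold lower. The bounds were 4.76 for Rtkn2, 4.64 for the histone gene Hist2h2bb, 4.38 for the nuclease gene Ankle1 and 3.92 for Depdc1b. These zeros and bounds belong to that draw. In the second draw the ratios were 0.0782 for Brip1, 0.0503 for Gtse1, 0.179 for Hist2h2bb and 0.0903 for Ankle1. Rtkn2 and Depdc1b stayed at 0 there. Over the 10 other settings the ratio of Brip1 reached 0.168. With 1 UMI each in the first draw, Kif18a had a ratio of 0.0165 (0.000416 to 0.0921), Spag5 0.0175 (0.000442 to 0.0978) and Espl1, the separase that cuts cohesin, 0.0223 (0.000564 to 0.125). In the second draw these ratios were 0.106, 0.0356 and 0.0681.

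S phase genes were low, but were counted in most of these cells. The share of free RNA among such counts was not tested. Of 40 such genes, 39 were leading lower, and the summed ratio was 0.277 (0.263 to 0.291). A non-cycling cell held a median of 3 of their UMIs, and at most 20, against a median of 11 in the other cells, and 38 of the 465 (8.17%) held none. Rrm2, a subunit of ribonucleotide reductase, had a ratio of 0.0829 (0.0463 to 0.137), Mcm3 of the replicative helicase 0.205 (0.151 to 0.271) and Pcna, the sliding clamp, 0.256 (0.187 to 0.343). Replication-dependent histones followed, with 13 of 14 genes leading lower and a summed ratio of 0.212 (0.191 to 0.235). The linker histone Hist1h1b stood at 0.0565 (0.0388 to 0.0794).

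Genes that act before S phase were closer to the other cells. Among 10 G1 cyclins and kinases with enough UMIs, 2 were leading lower and none leading higher, beside 8.79% and 3.12% of all genes. Their ratios still leaned low: 9 of the 10 were below 1, all but that of Ccnd1, and the median was 0.736. Of all 9809 genes, 5271 had a ratio below 1. Cdk2, the kinase of the G1/S step, had 5 UMIs against 244 (0.179, 0.0577 to 0.425), and Rbl1, the p107 pocket protein, 4 against 171 (0.205, 0.0552 to 0.534). Ccnd1, the D-type cyclin that answers growth signals, had 362 CPM against 294 (1.23, 1.14 to 1.32), and its partner Cdk4 had 459 against 505 (0.910, 0.853 to 0.969).

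The genes chosen as markers did not behave alike. Mxd4, which pairs with MAX, had 177 thinned UMIs in the non-cycling cells and 759 in the others, or 76.1 against 37.3 CPM (2.04, 1.72 to 2.41). Its ratio was 1.97 to 2.16 in the 10 other settings. Nrxn3, a presynaptic adhesion protein, stood at 55.9 against 24.9 CPM (2.25, 1.84 to 2.73), with 1.83 to 2.87 in the other settings. Mapt, the axonal microtubule protein tau, stood at 34.0 against 18.1 (1.88, 1.46 to 2.4), but met the leading rule in only 5 of the 10 other settings.

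Hist1h2bc, a histone H2B gene, stood at 54.6 against 34.1 CPM (ratio 1.6, 1.31 to 1.94) and was not leading, because its ratio was 0.924 among cells with 10000 to under 20000 UMIs. The markers were picked from these cells, so their ratios support nothing further. After thinning, 198 of the 465 non-cycling cells (42.6%) and 2586 of the other 4072 (63.5%) held no UMI of any of the 4, and at levels this low a count of 0 does not show that a cell lacks the RNA.

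**Figure D1:**
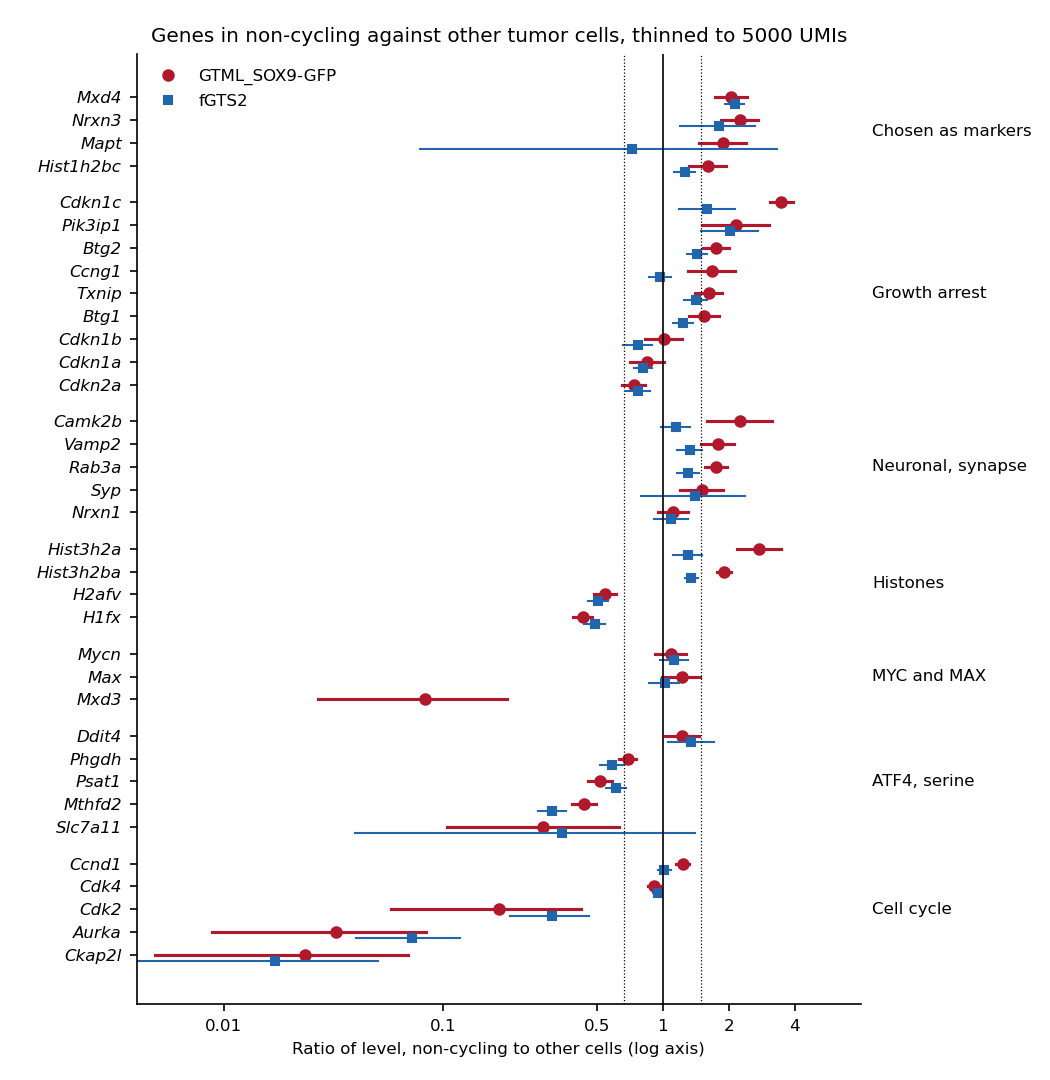
Ratio of level in non-cycling cells to that in other cells for genes grouped by role, on a log axis, in GTML_SOX9-GFP (circles) and fGTS2 (squares). Lines are exact 95% counting intervals, dotted lines mark 1.5-fold in either direction, and a gene with 0 UMIs in a group of a library has no point there. Mxd4 and Nrxn3 sit near 2 in both libraries, Mycn near 1, and Mxd3 at 0.0829 in GTML_SOX9-GFP.

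Ordering the cells by their UMIs of the 5 rule genes, from 0 through 1, 2 to 4, 5 to 9 and 10 to 29 up to 30 or more, gave groups of 465, 422, 758, 603, 909 and 1380 cells. Mxd4 had 76.1, 75.8, 52.8, 36.8, 25.3 and 25.1 CPM along this order. The cells with a single rule UMI had nearly the level of the non-cycling ones, and the decline lay beyond them. Mxd3, a paralogue of Mxd4 in the same family, ran the other way, with 2.15, 2.84, 5.54, 11.3, 30.1 and 47.8. Nrxn3 followed Mxd4, with 55.9 and 57.3 in the first 2 groups and 16.4 in the last.

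Hist1h2bc peaked between, at 54.6, 76.3, 67.3, 43.4, 18.3 and 9.42 CPM, so its highest level was outside the non-cycling cells. Tcp11l2, on 45 UMIs in the non-cycling cells and 129 in the others, had 19.4, 15.6, 9.76, 5.97, 5.28 and 2.46. It met the leading rule in 8 of the 10 other settings. It missed the rule in the second random draw, where its ratio was 1.84. It also missed it when only non-cycling cells with at most 2 S phase UMIs were kept. The S phase genes had a summed 677, 848, 1431, 2468, 3471 and 2799 CPM, so that cells with 1 rule UMI stood much nearer to the non-cycling cells than to the rest. Ccnd1 ran from 362 down to 254. Total UMIs also differ along this order, and their part in it was not tested beyond the thinning.

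**Figure D2:**
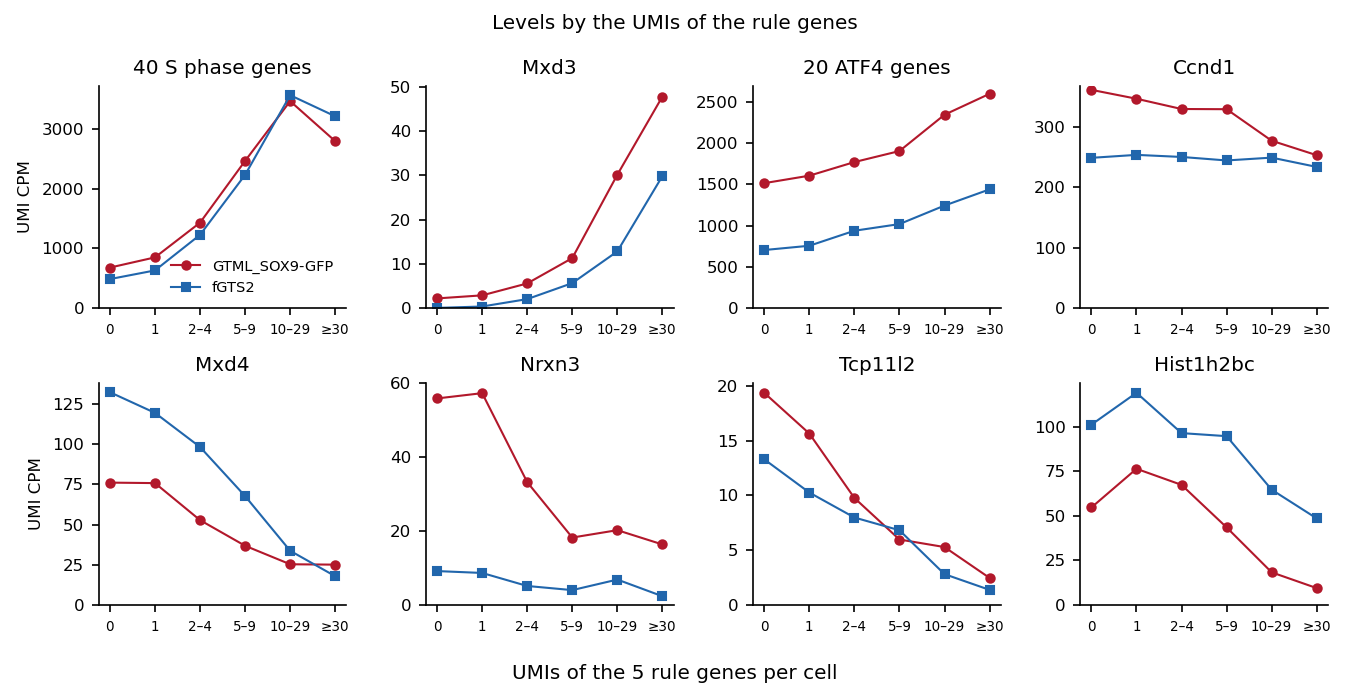
CPM after thinning (vertical axes) for 2 summed gene lists and 6 genes, by the UMIs of the 5 rule genes in a cell before thinning (horizontal axes), for GTML_SOX9-GFP (circles) and fGTS2 (squares). In GTML_SOX9-GFP, Mxd4 goes from 76.1 to 25.1 and Mxd3 from 2.15 to 47.8 between the first and the last group, and Hist1h2bc is highest at 1 UMI.

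Some growth arrest genes were higher. Of 25 with enough UMIs, 7 were leading higher and none lower, and the summed ratio was 1.33 (1.28 to 1.37). Cdkn1c, described below, was among the 7, and a few cells carried it. It held 370 of the list's 4199 UMIs in the non-cycling cells and 935 of 27732 in the others. The summed ratio thus rests in part on those few cells. Btg2, an antiproliferative factor, stood at 106 against 60.6 CPM (1.75, 1.52 to 2.0) and was past the rule in all 10 other settings. Pik3ip1, an inhibitor of PI3 kinase, had a ratio of 2.16 (1.51 to 3.04), Txnip, which binds thioredoxin and limits glucose uptake, 1.62 (1.40 to 1.87), and Btg1 1.54 (1.32 to 1.79). Ccng1 was at 1.67 and Cited2 at 1.59. The common inhibitors of cyclin-dependent kinases were not among them. Cdkn1b (p27) stood at 1.01 (0.826 to 1.22), Cdkn1a (p21) at 0.852 (0.710 to 1.01) and Cdkn2a, the Ink4a/Arf gene, at 0.736 (0.649 to 0.832).

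Cdkn1c, which encodes the inhibitor p57, had the highest ratio of all leading genes, with 159 against 45.9 CPM (3.47, 3.06 to 3.91), but a few cells carried it. Of its 370 UMIs in the non-cycling cells, 293 lay in 12 cells with at least 4 each, the highest with 81. The other 453 non-cycling cells had 34.0 CPM and the 4056 other cells with fewer than 4 had 33.0, so without such cells the ratio was 1.03. Among the other cells, 16 held at least 4 and together 265 UMIs. The counting interval above does not cover such a spread over cells.

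The 12 cells differed from the rest of the non-cycling cells in more than Cdkn1c, a comparison chosen after their values were seen. Igfbp5, an IGF-binding protein, stood at 1100 CPM against 61.8, Ckb, the brain creatine kinase, at 1133 against 94.0, and Myog, a muscle transcription factor, at 517 against 14.6. Nrxn3 and Mapt had 0 UMIs in the 12 cells against 57.4 and 34.9 CPM. Krt19 had 33.3 CPM against 503. The taste receptor G protein Gnat3 had 50 CPM in the 12 cells (3 UMIs) against 610 in the other 453. Mxd4 was not lower there, with 100 CPM (6 UMIs) against 75.5. Most of these differences also appeared between the 16 other cells with at least 4 Cdkn1c UMIs and the 4056 with fewer. There Igfbp5 stood at 237.5 CPM against 37.5, Ckb at 412.5 against 51.04 and Myog at 137.5 against 11.34. Krt19 had 87.5 against 255.7, Gnat3 75 (6 UMIs) against 401.8 and Nrxn3 0 against 25. Mapt was not lower there, with 37.5 CPM (3 UMIs). Such differences were thus not limited to the non-cycling cells. The fGTS2 library held no cell with 4 or more Cdkn1c UMIs.

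**Figure D3:**
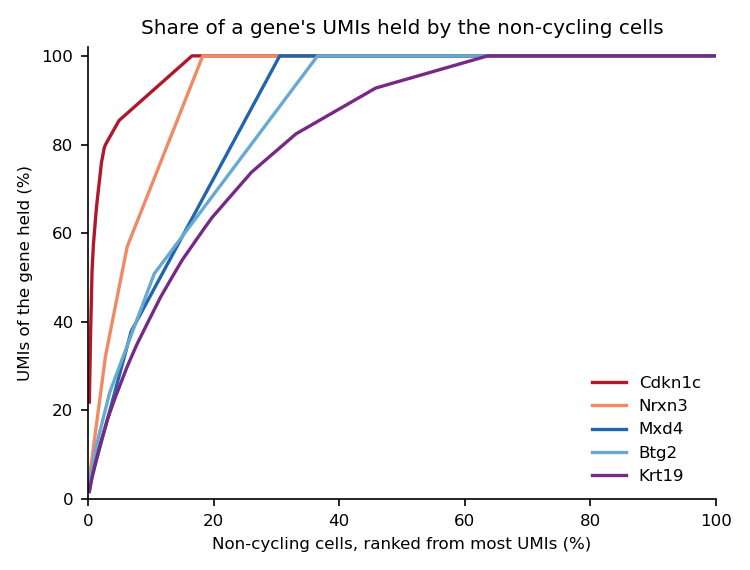
Share of a gene's thinned UMIs (vertical axis, %) held by the non-cycling GTML_SOX9-GFP cells ranked from most to fewest UMIs (horizontal axis, % of the 465 cells), for 5 genes. The 46 highest cells hold 91.6% of Cdkn1c, 70.0% of Nrxn3 and 45.8% of Mxd4.

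Histones made outside S phase split. Hist3h2a had 104 UMIs against 331, or 44.7 against 16.3 CPM (2.75, 2.19 to 3.44). Its neighbor in name Hist3h2ba stood at 393 against 207 CPM (1.90, 1.77 to 2.04). Both were past the rule in all 10 other settings. The linker histone H1fx was at 0.431 (0.390 to 0.476), the variant H2afv at 0.548 (0.488 to 0.613), H1f0 at 0.634 and H3f3b, which encodes H3.3, at 0.663. Of 14 such genes, 2 were leading higher and 4 lower. The replication-linked variants H2afz and H2afx were both leading lower, with a joint ratio of 0.467.

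Within the MYC and MAX network, 1 of 11 genes was leading higher (Mxd4) and 2 lower, beside 3.12% and 8.79% of all genes. Mxd3 had 5 UMIs against 528 (0.0829, 0.0268 to 0.195). Mlxip had 7 against 120 (0.511, 0.201 to 1.09), an interval that includes 1. Mycn itself was at 72.7 against 66.9 CPM (1.09, 0.920 to 1.27), Max at 1.22 (0.993 to 1.48) and Mxi1 at 1.21 (1.03 to 1.40). From the shallowest to the deepest of the depth ranges the Mycn ratio was 0.639, 1.19 and 1.18. Whether counts of Mycn come from the MYCN transgene, the mouse gene or both was not tested. In the ribosome biogenesis and MYC target list, 2 of 35 were leading lower, a share below the 8.79% of all genes. They were Odc1 of polyamine synthesis (0.641, 0.576 to 0.712) and Cad of pyrimidine synthesis (0.657, 0.518 to 0.824). Odc1 met the rule in 7 of the 10 other settings. The summed ratio of the 35 genes was 0.896. The 40 cytosolic ribosomal proteins had all 40 ratios above 1, beside 4538 of all 9809 genes, and a sum of 1.09. Sox9 had 33 UMIs against 242 (1.19, 0.804 to 1.72), too few to show a difference.

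Serine and amino acid stress genes were lower. Of 20 targets of the transcription factor ATF4, 6 were leading lower and none higher, with a summed ratio of 0.694 (0.670 to 0.718). Mthfd2, of mitochondrial folate metabolism, stood at 108 against 245 CPM (0.439, 0.385 to 0.498). Psat1, of serine synthesis, was at 0.518 (0.456 to 0.586), Shmt2 at 0.654 (0.575 to 0.741), and the cystine transporter Slc7a11 at 0.286 (0.103 to 0.634) on 6 UMIs. Phgdh, the first step of serine synthesis, was at 0.692 without meeting the rule. Along the rule-gene order the summed ATF4 level ran from 1514 through 1605, 1770, 1904 and 2345 to 2599.

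Several synaptic genes were higher. Of 25 synapse genes, 6 were leading higher and 1 lower, with a summed ratio of 1.29 (1.23 to 1.35). Besides Nrxn3 they included the vesicle genes Rab3a (1.75, 1.56 to 1.96), Vamp2 (1.78, 1.49 to 2.12), Syn1 (2.0, 1.15 to 3.33) and Syp (1.51, 1.20 to 1.87). The calcium channel gene Cacna1a was at 0.433 (0.234 to 0.739). Of 30 neuronal differentiation genes, 2 were leading higher, Mapt and the kinase subunit Camk2b (2.25, 1.59 to 3.14). Tubb3, the neuronal tubulin, was at 1.12. Stmn2 had 2 UMIs in the non-cycling cells and 9 in the others. Dcx, a marker of young neurons, had 0 and 1. Both were too low in the whole library to show a difference. Within the 465 cells the neuronal and synapse lists varied together (Spearman's rho 0.56 over 465 cells of 1 library, thinned to 1 depth), and both ran against the ribosomal proteins (-0.38 and -0.35), whose UMIs come out of the same fixed total. Snap25 is in both lists, and with it left out of the synapse list rho was 0.54. In the 873 non-cycling cells of fGTS2 these values were near 0, with 0.056 between the neuronal and synapse lists and -0.041 and -0.065 against the ribosomal proteins. The lists were sparser there, with a median of 5 neuronal and 1 synapse UMI per cell, against 19 and 4 in GTML_SOX9-GFP. Of the fGTS2 cells 22.2% held no synapse UMI. Counts this low can pull rho toward 0, so these values do not show that such covariation is absent in fGTS2.

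Taste-signalling and tuft-cell genes, a list added after their values were seen, were partly higher. Of 23 with enough UMIs, 4 were leading higher and none lower, with a summed ratio of 1.28 (1.26 to 1.30). Krt19, an epithelial keratin, stood at 491 against 255 CPM (1.93, 1.80 to 2.05) and Ltc4s, the leukotriene C4 synthase gene, at 38.7 against 17.4 (2.23, 1.75 to 2.81). Gnat3 was at 1.49 and Rgs13 at 0.995. In p53 target genes 4 of 12 were leading higher, among them Bbc3, which promotes apoptosis (1.82, 1.53 to 2.15), and Trp53inp1 (2.19, 1.43 to 3.27), which met the rule in 7 of the 10 other settings, with a summed ratio of 1.13. The other members were split: 6 of the 12 ratios were above 1 and 6 below, down to 0.263 (0.0533 to 0.790) for Perp on 3 UMIs, and the leading Btg2 and Ccng1 are also on the growth arrest list.

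The 28 leading higher genes that held in all 10 other settings were looked at after their values were known. Besides Mxd4, Nrxn3, Btg2, Krt19, Ltc4s and the 2 Hist3 genes they include Pdcd4, an inhibitor of translation, at 75.3 against 39.7 CPM, and Pik3r3, a regulatory subunit of PI3 kinase, with 65 UMIs against 321. Kdm4a, a histone demethylase, stood at 67.5 against 40.3, Pcdhb16, a clustered protocadherin, at 11.6 against 5.35, and Bfsp1, a filament protein first known from the lens, at 40.4 against 16.5. Retsat, a retinol saturase, had 1664 UMIs against 8898. In bulk the log2 changes by limma in GTML3 and preGTS1 were 0.92 and 0.55 for Pdcd4, 1.78 and 0.86 for Pik3r3, 0.96 and 0.87 for Kdm4a and 1.95 and 2.32 for Pcdhb16, all past an adjusted p of 0.05. Retsat fell in both lines, by 0.61 and by 0.51. Of the 19 such genes in the bulk table, 15 rose under DOX in GTML3 (78.9%) and 12 in preGTS1 (63.2%), while 2 and 3 fell. Of all genes 34.5% rose in each line, and 31.4% and 33.7% fell.

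Markers of other cell types were counted per cell and as sums. No non-cycling cell held 3 or more markers of microglia, T, NK and B cells, endothelium, mural cells or ependyma, but with 3 or 4 markers in the table for most of these types that count could hardly be reached. Of the non-cycling cells 75.7% held no UMI of a T, NK or B marker, against 82.2% of the others. The 10 microglia markers present summed to 10.8 against 5.70 CPM, the 3 T, NK and B markers to 54.6 against 40.6, the 4 endothelial ones to 0.430 against 1.47, the 6 mural ones to 4.73 against 3.24 and the 3 ependymal ones to 0.860 against 0.442. None of the erythroid markers was in the table. Oligodendrocyte markers, which this tumor also expresses, reached 3 in 53 non-cycling and 879 other cells (131.6 against 158.4 CPM), and leaving those cells out is among the 10 settings. Mature granule neuron markers summed to 64.5 against 53.3, Purkinje and interneuron markers to 3.01 against 7.32 and unipolar brush cell markers to 0.430 against 1.23, with Eomes at 0. Astroglial markers summed to 109 against 88.1, with Aqp4 at 0, Aldoc at a ratio of 2.10 and Apoe at 0.589. The part of these cell types in the ratios was not tested otherwise.

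The same rule found 873 of 4358 cells (20.03%, 18.9 to 21.3) in fGTS2, a library the choice did not use. It shared 6 cell barcodes with GTML_SOX9-GFP. There 201 of 8915 genes were leading higher (2.25%) and 750 lower (8.41%). Of the leading lower genes, 453 were shared (52.6% of the GTML list and 60.4% of the fGTS2 list), and of the leading higher genes 39 (12.7% and 19.4%). Of the 210 GTML higher genes with enough UMIs in fGTS2, 188 had a ratio above 1 (median 1.30, against 0.968 over all genes), and 688 of 740 lower genes had one below 1 (median 0.514). Of all 8915 genes there, 3984 had a ratio above 1 and 4931 one below 1. Mxd4 had a ratio of 2.12, Nrxn3 1.79, Tcp11l2 2.49, Pik3ip1 2.02, Cdkn1c 1.59 and Hist3h2a 1.30 there. Mapt had only 2 UMIs in the non-cycling cells and 11 in the others. The neuronal list had a summed ratio of 0.911 there against 1.15 in GTML, and hypoxia and glycolysis genes 0.943 against 1.16. With 1 library per tumor model, model and library cannot be told apart.

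Bulk RNA of the treated lines gave samples that the cell choice did not use, and a test. Changes are log2 differences DOX minus DMSO with their standard errors, tested with limma and adjusted over 15926 genes. In bulk samples fewer cells of a kind and less RNA per cell cannot be told apart, and a change here does not show that non-cycling cells became more frequent. The labels do not say that the samples came from separate cultures, so p-values measure a spread that may be technical.

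Mycn fell under DOX, and here too transgene and mouse gene were not told apart. Its log2 CPM was 8.69, 8.48 and 8.42 in GTML3 under DMSO and 4.93, 5.07 and 4.8 under DOX, and 10.54, 10.45 and 10.91 against 5.54, 6.13 and 5.65 in preGTS1. The groups did not overlap, and the limma changes were -3.59 ± 0.15 (SE, adjusted p 6.7e-11) and -4.86 ± 0.15 (2.2e-12). Most leading genes moved under DOX in the direction seen in the cells. Of the 306 leading higher genes 250 were measured. In GTML3, 188 of these rose (75.2%) and 15 fell, beside 34.5% and 31.4% of all genes, with a median change of 1.05 against 0.05. In preGTS1, 177 rose (70.8%) and 26 fell, beside 34.5% and 33.7%, with a median of 0.92 against 0.04.

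Of the 862 leading lower genes 819 were measured. In GTML3, 624 fell (76.2%) and 81 rose, with a median of -1.17, and in preGTS1 641 fell (78.3%) and 84 rose, with a median of -1.45. In both lines 158 of the 250 higher genes (63.2%) and 575 of the 819 lower genes (70.2%) moved the same way as in the cells, while 9 and 42 moved the opposite way in both. The lines differed from each other, by the test of the difference in limma, for 132 of the 250 and 440 of the 819. Restricted to genes that both random draws called, 74 of 95 higher genes rose in GTML3 and 68 of 95 in preGTS1, and 491 and 505 of 563 lower genes fell.

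**Figure D4:**
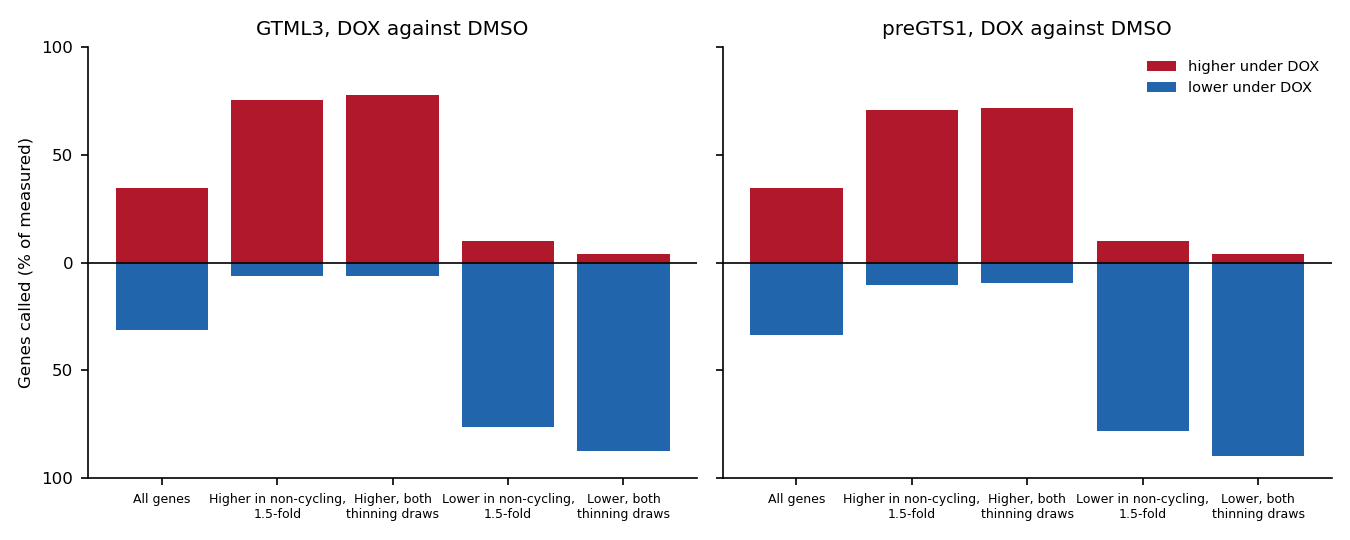
Share of measured genes called higher (upward bars) or lower (downward bars) under DOX by limma, in GTML3 and preGTS1, for all genes and for genes higher or lower in non-cycling cells, also restricted to those called in both thinning draws. In GTML3, 75.2% of the higher genes rose and 76.2% of the lower genes fell, against 34.5% and 31.4% of all genes.

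Mxd4, Nrxn3 and Mapt rose in both lines. Mxd4 had a log2 CPM of 5.42, 5.31 and 5.38 in GTML3 under DMSO and 7.85, 8.00 and 7.99 under DOX, and 6.11, 5.96 and 5.93 against 7.88, 8.06 and 7.78 in preGTS1. No groups overlapped, with limma changes of 2.57 ± 0.09 (adjusted p 1.1e-12) and 1.91 ± 0.09 (1.8e-11). Nrxn3 was low, with -1.04, -1.91 and -1.11 against 1.73, 0.78 and 1.34 in GTML3, and 0.15, 0.44 and -0.25 against 3.58, 3.86 and 3.64 in preGTS1. Its limma changes were 2.63 ± 0.33 (3.3e-06) and 3.58 ± 0.33 (8.3e-08). Mapt had 0.74, 1.34 and 1.24 against 6.33, 6.38 and 6.08 in GTML3 and 2.53, 2.72 and 2.45 against 6.5, 6.59 and 6.55 in preGTS1, with limma changes of 5.16 ± 0.15 (3.7e-13) and 3.98 ± 0.15 (2.3e-12).

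Other genes of the non-cycling cells moved otherwise in bulk. Hist1h2bc fell in both lines, from 8.13, 8.09 and 8.10 to 4.87, 4.96 and 5.13 in GTML3 and from 8.50, 8.61 and 8.65 to 5.76, 6.20 and 5.70 in preGTS1 (limma changes -3.12 ± 0.11, adjusted p 2.2e-12, and -2.70 ± 0.11, 6.9e-12). Its direction was thus opposite to its ratio in the single cells. Hist3h2a had 0.20, 0.83 and 0.39 against 3.09, 3.09 and 3.40 in GTML3, a limma change of 2.72 ± 0.19 (5.0e-09), but 3.26, 3.61 and 3.35 against 2.96, 2.99 and 3.19 in preGTS1, a change of -0.36 ± 0.19 (0.11). Hist3h2ba fell in both lines, with limma changes of -0.80 ± 0.11 (1.1e-05) and -1.97 ± 0.11 (2.5e-10). Tcp11l2 rose in both, from 2.41, 2.41 and 2.25 to 5.23, 5.37 and 5.52 in GTML3 and from 2.37, 2.95 and 2.64 to 3.93, 3.74 and 3.93 in preGTS1 (limma changes 3.02 ± 0.15, 8.7e-11, and 1.21 ± 0.15, 2.7e-06).

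Cdkn1c showed the lines apart. It had -6.16 (0 reads), -2.30 and -3.14 in GTML3 under DMSO and 0.81, 0.71 and 0.88 under DOX, which gave a limma change of 4.66 ± 0.71 (adjusted p 6.5e-05). In preGTS1 it had 2.95, 2.90 and 2.80 against 2.54, 3.24 and 2.63, overlapping groups, with a change of -0.08 ± 0.71 (0.93). Cdkn1a fell in GTML3, from 2.50, 2.53 and 2.56 to 1.57, 0.96 and 1.51, and rose in preGTS1, from 0.42, 0.58 and 0.74 to 2.36, 2.18 and 2.17 (limma changes -1.18 ± 0.22, 1.8e-04, and 1.66 ± 0.22, 5.1e-06). Mxd3 fell in both lines with a limma change of -2.43 ± 0.10 in each (8.5e-12 and 5.6e-12). Sox9 rose by 2.24 ± 0.32 (1.7e-05) in GTML3 and 2.13 ± 0.32 (2.7e-05) in preGTS1 by limma.

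**Figure D5:**
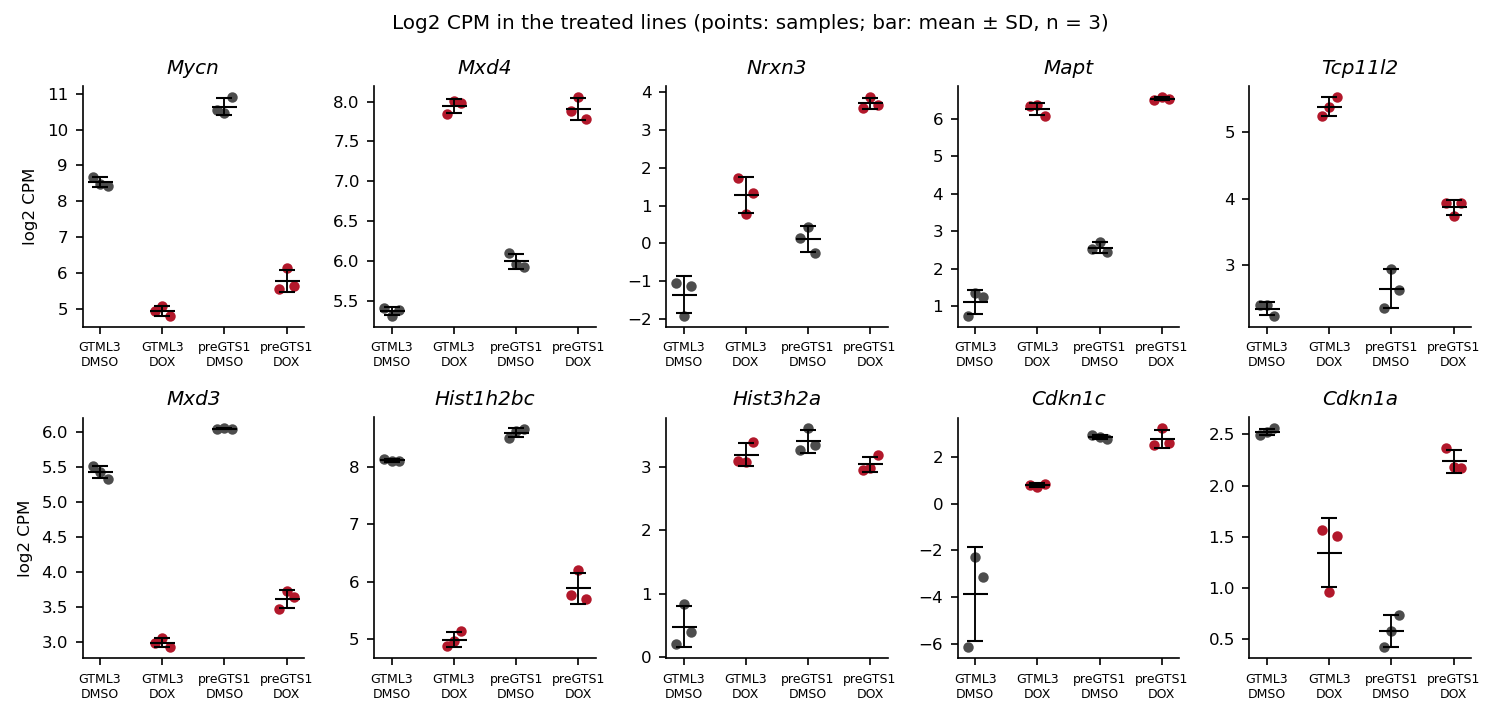
Log2 CPM (vertical axes) of 10 genes in the 4 treated groups, with points for samples and bars for mean ± SD (n = 3). Mxd4, Nrxn3 and Mapt are higher under DOX in both lines, Hist1h2bc and Mxd3 lower in both, and Cdkn1c is higher under DOX in GTML3 while its preGTS1 groups overlap.

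Gene groups of the non-cycling cells differed in how bulk followed them, by counts of genes past an adjusted limma p of 0.05, to be read beside the 34.5% of all genes that rose in each line and the 31.4% and 33.7% that fell. In GTML3 and preGTS1 all 40 S phase genes fell, and 47 and 49 of the 49 G2/M genes did. Growth arrest genes rose in 15 and 21 of 28 and fell in 4 and 1, with Btg2 at 1.73 and 0.84 and Pik3ip1 at 3.71 and 1.81. Synapse genes rose in 26 and 29 of 34 and fell in 2 and 1, and neuronal genes rose in 25 and 32 of 39 and fell in 6 and 2. All 35 ribosome biogenesis genes fell in both lines, and 39 and 35 of 40 ribosomal protein genes fell (medians -0.85 and -0.99), whereas all 40 were slightly above 1 in the cells. ATF4 genes fell in 12 and 8 of 20 and rose in 5 and 9, and the 40% and 45% of preGTS1 were not far from the shares of all genes there. Slc7a11 fell by 2.73 ± 0.20 in GTML3 and had 0.52 ± 0.20 in preGTS1 (adjusted p 1.3e-08 and 0.033 by limma). The preGTS1 call was lost without preGTS1 DMSO replicate 1 or 3 or DOX replicate 1 or 3 (adjusted p 0.0688, 0.112, 0.0828 and 0.078 by limma).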

How the data were processed

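The tables that the authors deposited for single cells give whole UMI counts for each gene in each cell. The treated-line table deposited by the authors holds log2 CPM per gene; whole reads were recovered for 100% of its values within 0.1 read, giving 10.861 to 24.672 M reads per library. Per the labels' protocols, single cells were captured with 10x 3' v3 chemistry and bulk libraries made for Ion Torrent. Per the submitters' processing notes, STAR 2.4.0, Bowtie2 2.2, Subread 1.5.2, Cell Ranger 3.3.0, Seurat 3.0, limma, edgeR and MACS2 were used with builds mm9 and mm10, with no step assigned to each.

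Groups came from sample titles, as each treated sample's free-text description names the next column. Cells were thinned to 5000 UMIs without replacement (seed 1). No doublet caller was run, and 3 non-cycling and 275 other cells exceeded 40000 UMIs. With 1 library per group, no test was made between cells. Ratios carry exact 95% intervals. Bulk values were fitted as deposited with limma 3.58.1 in R 4.3.3 (lmFit, eBayes with trend and robust), 12 libraries in 1 fit, Benjamini-Hochberg over 15926 genes, all of which passed a CPM of 1 in at least 3 libraries. edgeR 4.0.16 and DESeq2 1.42.0 on the recovered reads were alternatives. Replicates were compared by chi-square (4.67 to 85.1 per degree of freedom). The highest values, 60.4 and 85.1, both involved the first DOX sample of GTML3. The scripts were tested on simulated data. Genes were picked by ratio rank (15 each way), by list, or because they mark the cells or the model, and not every one is described. Of the 15 of highest ratio, Resp18, Lgals9, Ppp1r27, Capn1, S100a13, Ly6h, Ptpre and Gm17322 are not described above. Among these, Ppp1r27 and Ly6h met the leading rule in all 10 other settings. The cells, lists and markers were chosen with earlier results of these data known.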

Additional observations from a re-analysis of the deposited data

Results flagged for a closer look

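The test of the difference is given here for the markers, the model genes, the 5 rule genes, the 15 genes of highest and of lowest ratio, and the other genes whose response under DOX is printed. For 31 of these the response to DOX in preGTS1 differed from that in GTML3 by limma's test of the difference, adjusted over all genes. The differences below are preGTS1 minus GTML3 on the log2 scale, and their causes were not tested. In 8 genes the fitted responses had opposite signs: Slc7a11 (3.25), Cdkn1a (2.84), Cdkn2a (1.52), Cdkn1c (-4.74, with 1 GTML3 DMSO library at 0 reads), Hist3h2a (-3.08), Anxa2 (2.26), Mgmt (1.47) and Trp53 (-1.12). The GTML3 response of Trp53 lost its call in 7 alternatives. For the markers the difference was -1.18 for Mapt, -0.67 for Mxd4 and 0.42 for Hist1h2bc. Mycn differed by -1.27 and Tcp11l2 by -1.80. Among the rule genes Top2a differed by -0.86, Ccnb1 by -0.86, Mki67 by -0.56 and Aurkb by -0.47. Among the genes lowest in non-cycling cells Brip1 differed by -1.02, Kif18a by -0.93, Kif14 by -0.84, Hist2h2bb by -0.78, Aurka by -0.75, Ccnf by -0.59 and Spag5 by -0.31. Among other genes whose response is printed, Pik3ip1 differed by -1.90, Hist3h2ba by -1.18, Pik3r3 by -0.92, Btg2 by -0.89, Aldoa by -0.62 and Pdcd4 by -0.37. Over all 524 measured genes of the lists used, 282 differed between the lines, and 33 of these were called in both lines with opposite signs. Clec16a, whose ratio in the cells turned with the random draw, differed by -0.76.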

How the results depend on the processing

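Bulk counts moved little with the scaling, filter or tool. Leaving out 1 library at a time gave 179 to 190 higher genes rising in GTML3, 608 to 631 lower genes falling there, 168 to 177 rising and 628 to 641 falling in preGTS1. With a 2-fold list 27 of 36 and 28 of 36 higher genes rose, and 389 and 398 of 449 lower genes fell; with both thinning seeds, chosen after seeing the data, 74 and 68 of 95 rose. Numbers of replicates did not pair the samples (same-number correlations -0.0552, -0.0226 and 0.0137 in GTML3, 0.0684, -0.154 and -0.0631 in preGTS1). A fit with the replicate block gave 186 and 619 in GTML3 and 173 and 635 in preGTS1, beside 188, 624, 177 and 641, and moved no count by over 1.5 times. It ended the calls of Trp53 in GTML3 (0.32, adjusted p 0.0595 by limma) and Rab40b in preGTS1 (1.24, 0.069), and changed no other call of a named gene. Cdkn1c in preGTS1, which was not called, ranged from -0.30 (without DOX replicate 2) through 0.0090 (without DOX replicate 3) to 0.055 (without DOX replicate 1) and was 0.018 with DESeq2.

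The lists from the cells depended more on the choices. A minimum of 10000 UMIs gave 463 higher genes and a minimum of 20 UMIs per gene 531, against 306. In fGTS2 the higher list had 363 and 384 under these settings, 85 without thinning and 559 with cells that held no S phase UMI (107 of 873 cells), where the lower list had 1607. Clec16a turned from 2.49 to 0.66 with another thinning seed. Of the named genes' ratios, 337 held, 42 moved and 1 reversed over all settings, and of the lists' summed ratios 48 held and 32 moved. Depth limits what 5000 UMIs can show, and 1 library per model gives no replicate error.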

Other observations

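Lysosome and autophagy genes had a summed ratio of 1.22 (1.18 to 1.27) in the non-cycling cells. Of 18 with enough UMIs, 1 was leading higher, beside 3.12% of all genes. It was Map1lc3a, which encodes the autophagosome protein LC3A (1.52, 1.36 to 1.70). In bulk, 20 of 20 lysosome and autophagy genes rose in GTML3 and 19 of 20 in preGTS1 by limma, beside 34.5% of all genes in each line. Hypoxia and glycolysis genes had a summed ratio of 1.16, with the glycolytic enzyme Aldoa at 1.54 (1.47 to 1.62) and the mitophagy receptor Bnip3l at 1.59 (1.43 to 1.77). In bulk, however, 14 and 15 of 21 fell and 5 and 3 rose in GTML3 and preGTS1. Of all genes 31.4% and 33.7% fell. The log2 changes of Aldoa were -1.14 and -1.75. Photoreceptor genes had a summed ratio of 1.46 over the 15 in the table, of which 3 had enough UMIs to be counted singly, and interferon genes 1.30, with H2-D1 of antigen presentation at 1.55. Progenitor genes stood at 1.0, with Nes at 0.201 and Msi1 at 0.660, and immediate early genes, which rise with dissociation, at 0.977. Singly, however, 7 of the 11 immediate early genes with enough UMIs were above 1 and 4 below, with a median ratio of 1.28. Mitochondrially encoded genes stood at 1.04.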
